A study of Homo sapiens with 32 samples.

Results

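Of 212358 windows of 401 bp in which chromatin accessibility was counted, 1859 (0.875%) had their centre in the coding sequence of a protein-coding gene and more than 1000 bp from every annotated transcript start. They were chosen by position alone, from the GENCODE release 44 annotation of hg38, and lay in 1514 genes. Of these genes, 1270 held 1 such window, 190 held 2 and 54 held more. The counts came from ATAC-seq, which reads out open DNA by where Tn5 can insert adapters, in the clone HEK_CloneZD29 of HEK293T, a human embryonic kidney line. All libraries, controls included, came from this single clone, with an inducible degron tag on the transcription factor ZNF143. The compound dTAGV-1, which brings a tagged protein to a ubiquitin ligase, was given at 50 nM for 30 minutes to 8 libraries. The 8 control libraries, replicates 9 to 16 like the treated ones, are labelled DMSO, while the treatment protocol speaks of untreated cells. The labels do not say that replicates were separate cultures, so the p-values below measure the spread between these libraries, which may be technical, and the loss of ZNF143 protein itself was not analysed here.

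Accessible DNA is DNA on which nucleosomes are displaced or loosely held, and most of it lies at promoters, at enhancers and at sites bound by CTCF, the zinc finger protein at chromatin loop anchors. Coding exons are read for their protein sequence, but some also hold sites for transcription factors and act as enhancers of neighbouring genes, so that the same bases can serve both uses. ZNF143 binds mostly next to transcript starts, at a long motif whose central core was the sequence searched here.

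The sequences that matter most for these windows were the few with the ZNF143 core, because the treatment targets that factor. Only 5 of the 1859 windows held the core within 100 bp of the centre on either strand, and the stretches around it are given from hg38, on the strand of the core, with the core in capitals.
DEPDC5, chr22:31857457-31857496, minus strand: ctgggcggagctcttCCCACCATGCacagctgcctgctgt
PDLIM7, chr5:177488107-177488146, minus strand: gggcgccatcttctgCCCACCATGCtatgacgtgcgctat
TNMD, chrX:100599683-100599722, minus strand: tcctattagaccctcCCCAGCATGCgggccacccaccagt
TCF12, chr15:57253374-57253413, plus strand: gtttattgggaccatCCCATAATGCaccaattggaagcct
HLA-DRB5, chr6:32521876-32521915, plus strand: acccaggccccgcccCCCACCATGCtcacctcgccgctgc
In all but HLA-DRB5 the core itself lay in the coding part of the exon. In HLA-DRB5 it lay beside it, in the same window.

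Sites for CTCF were far more frequent, in 79 windows (4.25%). The 5 with the highest control accessibility, picked after their values were seen, are shown on the strand of the motif, with the motif in capitals.
C17orf50, chr17:35764215-35764256, plus strand: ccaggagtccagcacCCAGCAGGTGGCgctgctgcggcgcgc
SMIM45, chr22:41957801-41957842, minus strand: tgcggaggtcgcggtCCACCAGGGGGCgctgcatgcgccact
ACE, chr17:63479061-63479102, minus strand: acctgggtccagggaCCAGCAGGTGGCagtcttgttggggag
ADAMTSL4, chr1:150560075-150560116, minus strand: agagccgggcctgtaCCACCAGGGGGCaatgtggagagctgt
TMEM63B, chr6:44152029-44152070, minus strand: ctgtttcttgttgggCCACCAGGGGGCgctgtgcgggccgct
In TMEM63B the motif lay in the intron next to the exon, and in the other 4 it lay in coding sequence. All 5 windows also held a peak summit called in replicates 1 to 8, a separate list that gives positions without values per library.

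The exons under these windows were short. The coding part of the exon had a median length of 189 bp (quartiles 133 and 419.5), and 74.3% were shorter than the window itself. Hence only 263 windows (14.2%) lay wholly inside coding sequence, and in the rest the counts also came from introns or untranslated parts beside the exon. The centre lay a median of 53 bp from the nearest end of the coding part. The distance to the nearest transcript start had a median of 5739 bp, with quartiles of 2410 and 13120 bp, and reached 206262 bp in the farthest window.

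Relative to the length available, coding sequence held more windows than the DNA around it. There were 81.2 windows per megabase of coding sequence lying more than 1000 bp from starts, against 69.1 in introns and 51.7 between genes at that distance. The windows were richer in G and C, with a median of 52.4% against 45.9% in introns. A window was called CpG-island-like when its GC content exceeded 50% and its CpG count exceeded 0.6 of that expected from its bases. Such windows made up 16.0% of the coding-exon windows, 2.17% of intron windows and 3.79% of windows between genes, against 61.2% of those within 500 bp of a start.

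Exons differ from introns in composition to begin with, so the windows were also set beside coding sequence at large. Every 100th coding base of the canonical transcripts more than 1000 bp from starts gave 217456 positions, and 1738 of the windows were centred in those transcripts. The CpG-island-like share was 16.7% in the windows and 5.94% at large, a ratio of 2.81. The contrast was widest for CTCF, whose motif stood no more than 100 bp from the centre in 4.2% of the windows. It did so for 0.139% of the positions at large, a ratio of 30.2. Against other counted windows the contrast was small. The motif stood in 4.25% of all 1859 coding-exon windows and 2.95% of intron windows. Its share was 3.81% in windows between genes and 3.03% in all counted windows.

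Other motifs were less displaced. The SP and KLF box GGGGCGGGG was found in 1.96% of the windows and 0.565% of positions at large, a ratio of 3.46. The AP-1 site, TGACTCA or TGAGTCA, was found in 3.34% of the windows and 2.57% at large, while it stood in 6.32% of intron windows. The TEAD site ACATTCCA stood in 0.633% of the windows and 0.898% at large. The ZNF143 core went the other way from CTCF, with 0.288% of the windows against 0.574% at large, and its share in all counted windows was 0.58%. A match only says that these letters are present, and both strands were read for each motif.

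After a filter on low counts, 1625 of the 1859 windows (87.4%) were tested, a share close to the 87.1% of all windows. Of the 234 others, 62 had no count in any of the 16 libraries. Of the empty windows, 39 had a near-identical copy elsewhere in the genome. An alignment of each window to hg38 found a copy with at least 95% identity over at least 300 bp for 111 windows in 62 genes, of which 26 (23.4%) were tested and 39 (35.1%) had no count. Among the 1748 windows without such a copy, 91.5% were tested and 1.32% had no count. The same split was weaker in introns, where 11.5% of windows with a copy had no count.

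The gene with the most windows, NBPF20, showed this directly. NBPF genes, a primate family built from repeats of a coding domain, held 36 of the windows in 10 genes. Every one of the 36 had a near-identical copy and none could be tested; NBPF20 held 10, all without a count, and NBPF10 held 9, of which 8 were without a count. HRNR, which encodes the repetitive skin protein hornerin, held 7 windows with copies, and none was tested. How reads with several possible positions were treated is not given in the sources used here, so levels in such genes are not read further.

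Accessibility in the tested windows was low to moderate. Levels are given as log2 CPM, counts scaled to the size of the library on a log2 scale, for windows of equal length. The median over windows was 1.42 (quartiles 0.86 and 2.34) for coding exons, 1.20 for introns, 1.21 between genes and 3.05 within 500 bp of a start. The most accessible decile of all tested windows, at 3.60 or more, took in 104 of the coding-exon windows (6.4%), against 2.57% of intron windows and 3.52% of windows between genes.

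The difference from introns was found in each library, between classes that also differed in CpG-island-like share and in distance to starts. Outside CpG-island-like sequence the medians over windows were closer, at 1.24 for coding exons and 1.18 for introns. In the 8 control libraries the median of coding-exon windows was at lowest 1.36, in the middle 1.41 and at highest 1.69, and it exceeded the intron median of the same library by 0.12 to 0.24. In the 8 dTAGV-1 libraries it ranged from 1.33 to 1.71 around a median of 1.42, and exceeded the intron median by 0.15 to 0.27. Replicate 12 was the shallowest library of each group, with 2275856 counts in control and 3373219 with dTAGV-1, and had a flatter signal: 29.5% of the control library's counts fell in the top decile of windows, where the control median was 46.3%. The other libraries had between 4642812 and 13671039 counts.

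**Figure D1:**
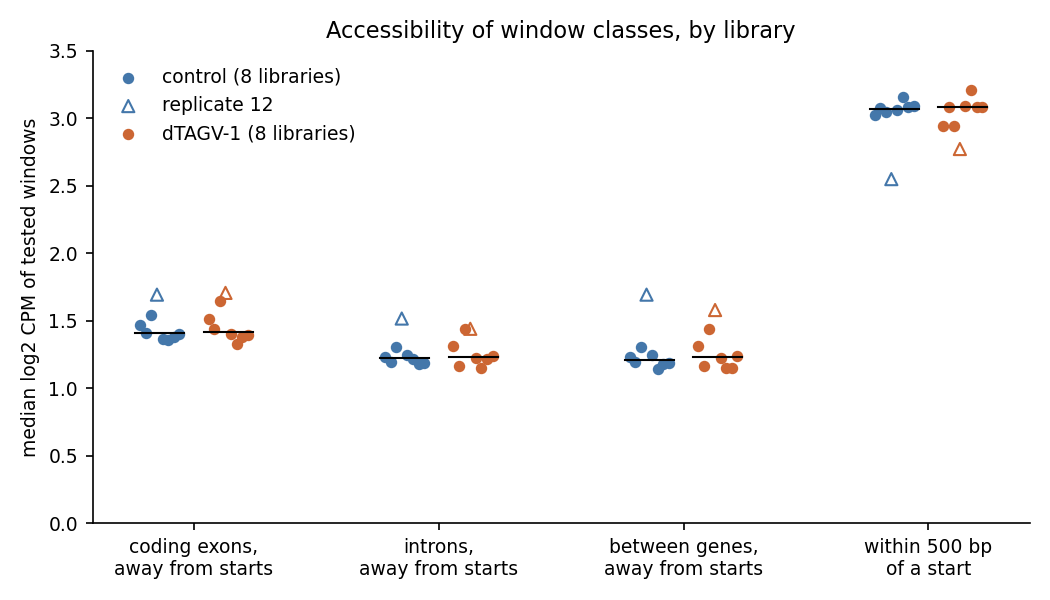
Median log2 CPM of the tested windows of 4 classes (horizontal axis) in each library, with 8 control libraries in blue, 8 dTAGV-1 libraries in orange, replicate 12 as an open triangle, and black bars at the median of the 8. Coding-exon windows lie between 1.33 and 1.71 in all 16 libraries, above introns in each library and far below windows at starts.

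Levels were lower farther from starts. Windows 1001 to 2000 bp away (353 tested) had a median of 2.01 log2 CPM, those at 2001 to 5000 bp (412) had 1.48, those at 5001 to 20000 bp (619) had 1.25, and those beyond 20000 bp (241) had 1.07. The rule's limit fell on this slope: the 238 tested windows just inside it, at 1001 to 1500 bp, had a median of 2.24, and the 498 coding windows just outside it, at 501 to 1000 bp, had 2.43. The CpG-island-like share was lower along with the level, from 34.6% in the nearest group to 5.39% in the farthest.

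Levels also differed by the place of the exon in the coding sequence. Internal exons, 1071 of the tested windows, had the lowest median at 1.27, while last exons (380) had 1.59, first exons (84) 2.09 and genes with a single coding exon (90) 2.23. CpG-island-like sequence made up 7.66% of the internal group and 54.4% of the single-exon group.

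**Figure D2:**
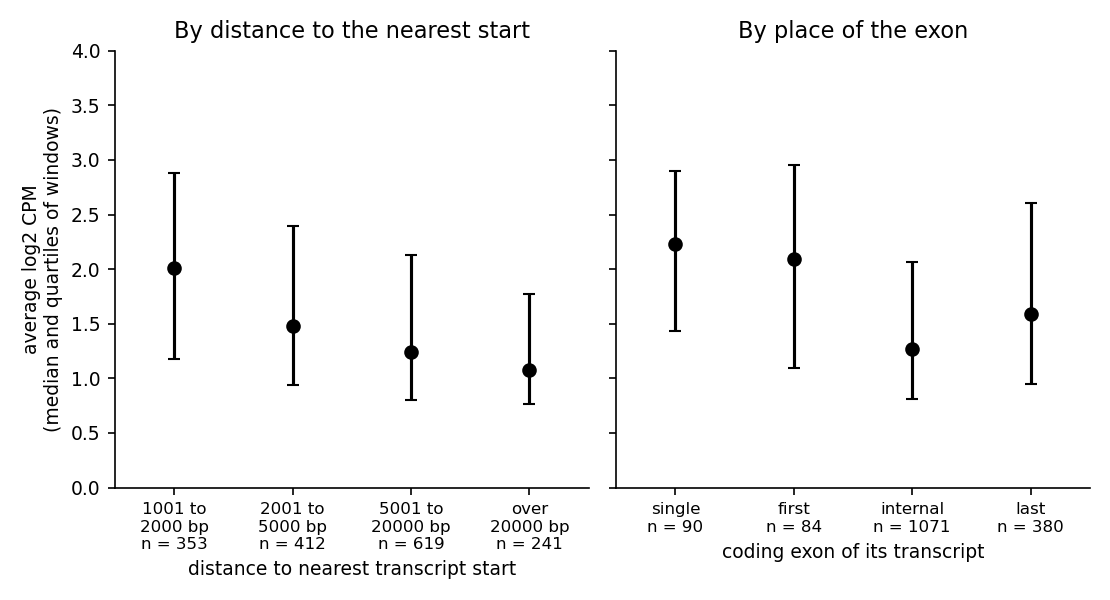
Average log2 CPM over the 16 libraries for the 1625 tested coding-exon windows, by distance to the nearest transcript start (left) and by place of the exon in the coding sequence (right). Points are medians over windows and bars run between the quartiles, so they show spread among windows and not among libraries. The medians run from 2.01 at 1001 to 2000 bp down to 1.07 beyond 20000 bp.

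The windows also differed by sequence. The 270 tested CpG-island-like windows had a median of 2.73 log2 CPM, and 24.1% of them reached the top decile of all windows, against 1.24 and 2.88% for the 1355 others. CpG-island-like windows in introns had a median of 2.62, so those of exons did not stand far from them. The other intron windows had a median of 1.18, near the 1.24 of the other coding-exon windows. The 72 tested windows with the CTCF motif had a median of 2.13, against 1.38 without it, and 6.94% of them were CpG-island-like.

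Seen from the level, the highest of 5 equal groups of tested coding-exon windows was 47.4% CpG-island-like and 8.92% carried the CTCF motif. In the lowest group the shares were 4% and 2.46%. The median GC content was 48.6% in the lowest and 61.6% in the highest group.

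**Figure D3:**
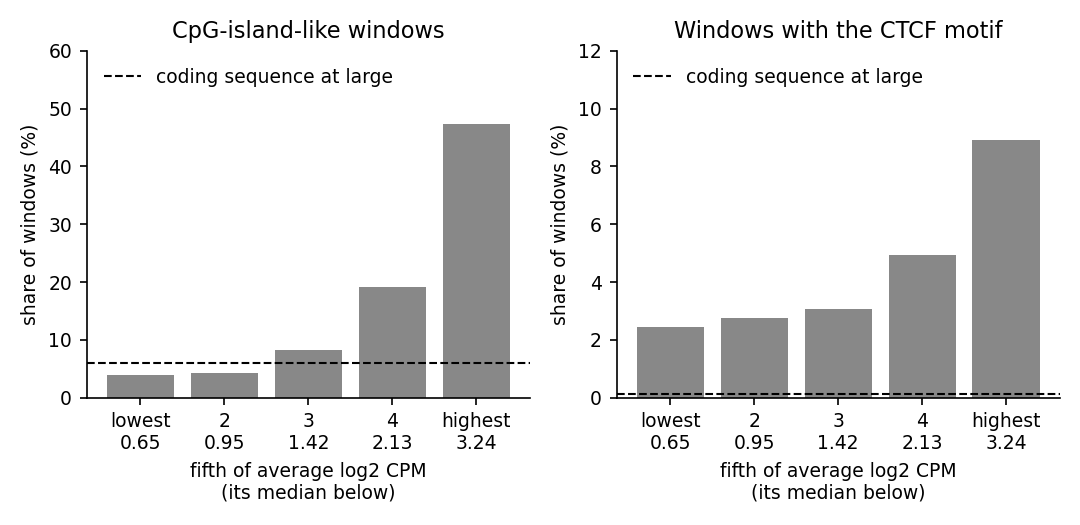
Share of tested coding-exon windows that are CpG-island-like (left) or hold the CTCF motif within 100 bp of the centre (right), in 5 equal groups of average log2 CPM with 325 windows each; the dashed line is the share in coding sequence at large. The CpG-island-like share is 4% in the lowest group and 47.4% in the highest, and the CTCF share 2.46% and 8.92%.

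Of all 1859 windows, 68.4% held a summit of replicates 1 to 8, a lower share than in introns (79.6%) or in all windows (77.8%). Among tested windows the share was lower than in introns both in CpG-island-like sequence (48.2% against 68.0%) and outside it (75.7% against 84.5%). Among tested windows with the CTCF motif the share was 87.5%.

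Among the tested windows, the highest control level was in the last exon of PRDM9. This gene encodes the histone methyltransferase that places meiotic recombination, and the exon carries its DNA-binding zinc fingers. Its coding part is 1538 bp long and the window (chr5:23527295-23527695) lay 19886 bp from the nearest start. In control libraries it read 4.57 log2 CPM in replicate 12, a median of 5.94, and 6.27 in the highest library. With dTAGV-1 the lowest, median and highest values were 4.76, 5.86 and 6.41, so the groups overlapped almost fully. A second window of this exon overlapped it and thus shared its counts, and had means of 5.57 in control and 5.53 with dTAGV-1.

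Further genes stood in the top ranks together with PRDM9. RASIP1, which encodes an endothelial Ras-interacting protein, had a control mean of 5.20 ± 0.29 log2 CPM (SD, n = 8) in its last coding exon. This window lay 1101 bp from the nearest start, that of MAMSTR, and thus close to the rule's limit. The actin-binding drebrin gene DBN1 had 5.02 ± 0.26, and the skeletal muscle chloride channel gene CLCN1 had 5.00 ± 0.30 in coding exon 17 of 23. The calcium channel gene ORAI3 had 4.89 ± 0.15 and PAPSS1, an enzyme of sulfate donor synthesis, 4.74 ± 0.38. The windows in RASIP1 and CLCN1 were CpG-island-like, and the windows named here, PRDM9 included, each held a summit of replicates 1 to 8. The transcripts of these genes were not analysed here.

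The tissue label was checked at starts. PAX2 and LIN28B, active in HEK293T cells, had start windows at 3.36 ± 0.32 and 3.25 ± 0.24 log2 CPM in control (SD, n = 8). The PAX2 value is the highest of 4 tested start windows, and LIN28B had 1. Among start windows these values stood at percentiles 60.1 and 57.4, not far above the middle. No start window of PTPRC and CD3E (blood), ALB (hepatocytes) or KRT5 (squamous epithelium) passed the filter on low counts.

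The comparison of dTAGV-1 with control asks which sites change within 30 minutes of targeting ZNF143. In coding exons away from starts, no window passed the test. Over all windows, edgeR (quasi-likelihood test, Benjamini-Hochberg) called 397 of 185040, or 0.215%, at an adjusted p under 0.05, and 0 of the 1625 coding-exon windows were among them. A count of 0 of 1625 allows a share of up to 0.185% for counting error only, slightly under that background. At or above the median level of all tested windows, 0 of 785 allows up to 0.382%, and 0.363% of all such windows were called. Windows away from starts as a whole had 0.115% called, introns 0.0897% and windows between genes 0.138%. A share below those classes was thus not shown at this number of windows. For all 1625 windows the limit lay slightly under the overall background, for counting error only. Among the 785 at or above the median level it did not. Within 500 bp of a start the share was 0.567%, with 214 of 216 calls lower.

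At an unadjusted p under 0.05, 19 of the coding-exon windows were lower (1.17%, background 1.55%) and 18 were higher (1.11%, background 1.3%). Both shares were near or under their backgrounds. DESeq2, the other tool, also called 0, with 21 lower and 26 higher at an unadjusted p under 0.05. The smallest adjusted p among the coding-exon windows was 0.483 by edgeR with Benjamini-Hochberg adjustment, in SCNN1D.

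Fold changes were centred on 0. The median log2 fold change (dTAGV-1 minus control) was 0.02, with quartiles of -0.11 and 0.14, against a median of 0.01 over all tested windows, and 45.2% were negative against 48.2% of all. The values ran from -1.03 to 1.02, with a median standard error of 0.23. For 1506 of the 1625 windows (92.7%) the 95% interval lay above -0.95, the median log2 fold change of the windows called lower elsewhere in the genome. For the other 119 windows the interval reached that size of fall, so a fall of that size was not excluded there. Among the 785 windows at or above the median level of all tested windows, 783 had intervals above -0.95. The windows behind this value were chosen by their call in these same data and had a median level of 3.18 log2 CPM. Many of their falls were smaller than the median, and these counts do not exclude smaller falls in coding-exon windows.

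**Figure D4:**
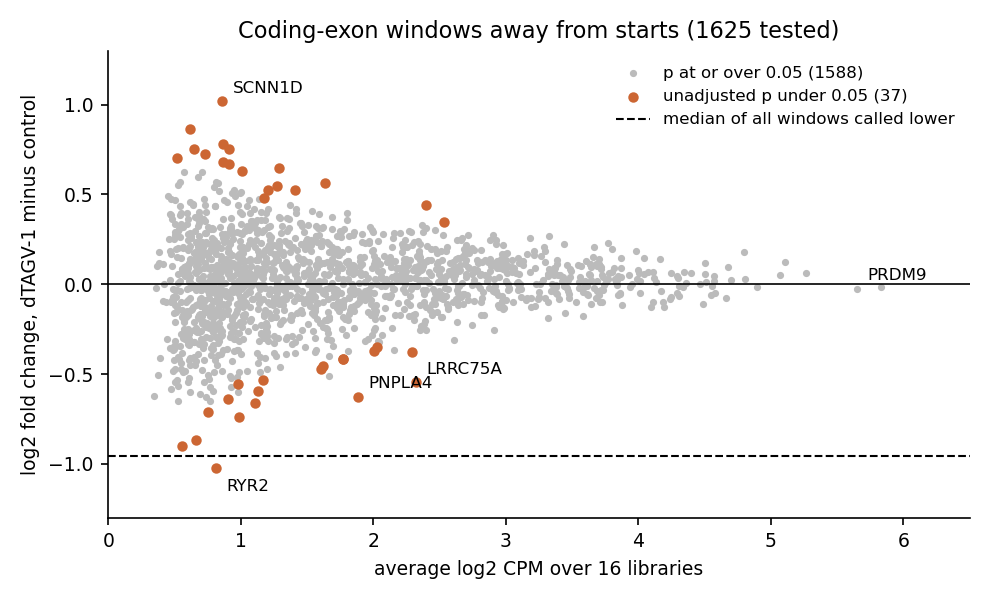
Log2 fold change (dTAGV-1 minus control) against average log2 CPM for the 1625 tested coding-exon windows; orange points have an unadjusted p under 0.05 by edgeR, and the dashed line is the median of all windows called lower, at -0.95. The points narrow around 0 as the level rises, and none reached an adjusted p under 0.05.

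The windows nearest to a call among the more accessible ones were lower in LRRC75A and PNPLA4. LRRC75A encodes a leucine-rich repeat protein, and its window (chr17:16443804-16444204, last coding exon, 2638 bp from the nearest start, that of SNHG29) read from 2.21 to 2.85 log2 CPM in control with a median of 2.58. With dTAGV-1 it read from 1.38 to 2.40 with a median of 2.14, and 5 of 8 libraries lay below the lowest control. The log2 fold change was -0.55 ± 0.16 (SE), with an adjusted p of 0.497 by edgeR with Benjamini-Hochberg adjustment. An overlapping window in the same exon, which shares counts with it, had a log2 fold change of -0.38 and 2 libraries below the lowest control.

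PNPLA4, which encodes a lipase of the patatin-like family, had its window over the first coding exon (chrX:7925865-7926265, 1348 bp from the nearest start). Control libraries ran from 1.71 to 2.72 log2 CPM with a median of 2.19. The dTAGV-1 libraries ran from 0.92 to 2.14 with a median of 1.46, and 6 of the 8 lay below every control library. The log2 fold change was -0.63 ± 0.19 (SE), with an adjusted p of 0.504 by edgeR with Benjamini-Hochberg adjustment.

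The 121 bases around the centre of both windows are given because these 2 came nearest to a fall, on the gene's strand, which is minus for both, with coding bases in capitals.
LRRC75A, chr17:16443944-16444064: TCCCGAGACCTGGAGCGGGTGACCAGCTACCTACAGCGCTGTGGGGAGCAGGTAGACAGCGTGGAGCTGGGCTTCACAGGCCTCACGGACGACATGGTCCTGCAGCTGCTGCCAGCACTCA
PNPLA4, chrX:7926005-7926125: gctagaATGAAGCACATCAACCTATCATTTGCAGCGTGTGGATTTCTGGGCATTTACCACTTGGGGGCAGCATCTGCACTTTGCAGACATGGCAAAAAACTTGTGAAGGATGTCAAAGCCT
Neither window held the ZNF143 core within 100 bp of its centre, and neither did any of the 10 windows named by their small p on either side. None of the 10 held an exact match to the CTCF motif there, and near matches were not searched.

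The remaining windows on the lower side lay in SYNE1, which encodes the nuclear envelope protein nesprin-1, and in CATSPER4, a subunit of the sperm calcium channel. In SYNE1 the control libraries ran from 1.51 to 2.18 log2 CPM around a median of 1.75, and those with dTAGV-1 from 1.15 to 1.77 around 1.35, with 5 of 8 below the lowest control. CATSPER4 had a log2 fold change of -0.47 with only 1 library below the lowest control.

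On the higher side, TRAPPC8, a subunit of a vesicle tethering complex, had control values from 1.56 to 2.70 log2 CPM with a median of 2.12. With dTAGV-1 its values ran from 1.82 to 3.02 with a median of 2.66, 4 of 8 above the highest control, and the log2 fold change was 0.44 ± 0.17 (SE). The others were FES (0.57), a tyrosine kinase gene, APBB1IP (0.34), an adaptor between Rap1 and integrins, FSTL4 (0.33) and MYOD1 (0.31), the muscle transcription factor. All 10 windows had adjusted p-values of 0.497 or more by edgeR with Benjamini-Hochberg adjustment. In FSTL4, control replicate 12 stood alone at -0.02 while the other 7 lay between 2.02 and 2.80, and without that library the log2 fold change was 0.25.

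Among the less accessible windows, the extremes were SCNN1D and RYR2, named after their values were seen. SCNN1D encodes the delta subunit of the epithelial sodium channel. Its window ran from -0.71 to 0.91 log2 CPM in control (median 0.32) and from 0.46 to 1.85 with dTAGV-1 (median 1.16), and 6 of 8 treated libraries exceeded every control. The log2 fold change was 1.02 ± 0.31 (SE).

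RYR2, the gene of the cardiac calcium release channel, held 8 windows, of which 6 were tested, with control means from 0.15 to 1.42. In the window with the lowest fold change of all, over coding exon 10 of 105, control values ran from -0.32 to 2.88 (median 0.93), and the top value was that of replicate 12. The dTAGV-1 values ran from 0.02 to 0.69 (median 0.37), within the control range. Its log2 fold change of -1.03 became -0.75 without control replicate 12.

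**Figure D5:**
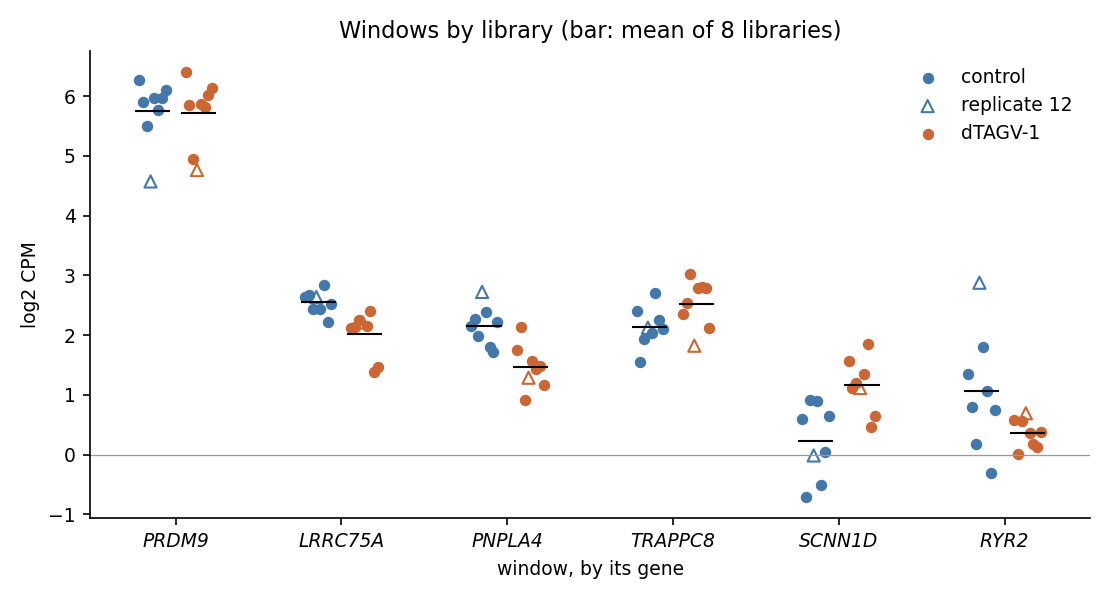
Log2 CPM of 6 windows in each library, with 8 control libraries in blue, 8 dTAGV-1 libraries in orange, replicate 12 as an open triangle and black bars at the mean of 8. The groups overlap in every window; 5 of 8 dTAGV-1 libraries lie below the lowest control in LRRC75A and 6 of 8 in PNPLA4, and 6 of 8 lie above the highest control in SCNN1D.

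The 5 windows with the ZNF143 core did not pass the test either. Over all windows with the core, 52 of 1099 tested (4.73%) were called lower, with 30 of 329 at starts and 6 of 363 in introns. DEPDC5, which encodes a subunit of the GATOR1 complex that restrains mTORC1, was the most accessible of the 5, from 2.24 to 2.72 log2 CPM in control (median 2.57) and from 2.38 to 2.86 with dTAGV-1 (median 2.64). Its log2 fold change was 0.12, with a 95% interval from -0.19 to 0.43. PDLIM7, which encodes an actin-associated LIM protein, ran from 1.25 to 2.25 in control (median 1.75) and from 1.22 to 2.59 with dTAGV-1 (median 1.59), and its log2 fold change was -0.11 with an interval from -0.54 to 0.32.

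TNMD, the gene of the tendon protein tenomodulin, had medians of 1.04 in control and 1.48 with dTAGV-1, and a log2 fold change of 0.28. HLA-DRB5, an MHC class II gene with close relatives in the same cluster to which reads may also map, had medians of 0.51 and 1.08, and a log2 fold change of 0.28. In TCF12, a bHLH transcription factor gene, control values ran from 0.08 to 1.52 (median 0.79) and dTAGV-1 values from -0.96 to 1.24 (median 0.45), with 3 of 8 below the lowest control. The lowest of these was replicate 12, and the log2 fold change of -0.27 turned to 0.06 without the libraries numbered 11 and 12. With 2 of 5 fold changes negative and intervals that span 0, no fall was shown at these cores. The intervals of the 5 reached down to -0.95 in TCF12 and to -0.19 in DEPDC5, and falls within them were not excluded.

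The CTCF windows shown had fold changes near 0. C17orf50 read from 3.47 to 4.81 log2 CPM in control (median 4.46) and from 3.99 to 4.79 with dTAGV-1 (median 4.57). In ACE, the gene of angiotensin-converting enzyme, the ranges were 3.42 to 3.96 (median 3.70) and 2.99 to 3.90 (median 3.80). Over the 5 windows shown, the log2 fold changes lay between -0.11 in ADAMTSL4 and 0.15 in SMIM45, with standard errors from 0.13 to 0.15. None of the 72 tested CTCF windows had an unadjusted p under 0.05 by edgeR in either direction. Over all tested windows 1.55% were lower and 1.3% higher at that p. A count of 0 among 72 therefore does not set these windows apart. Of 2133 tested intron windows with the motif, 10 were lower and 50 higher at that p.

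Windows in genes of known kinds were then counted, with lists defined by gene symbol. The C2H2 zinc finger genes, a large family of DNA-binding proteins whose finger arrays are often coded in a long last exon, held 29 windows in 26 genes, of which 25 were tested. Their median level was 2.01 against 1.46 over all tested windows, their median log2 fold change was -0.07, and 0 passed the test or reached an unadjusted p under 0.05. The highest was ZNF703, at 3.96 ± 0.31 log2 CPM in control (SD, n = 8) and 3.99 ± 0.25 with dTAGV-1.

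Genes with the symbol prefixes of developmental transcription factor families other than HOX held 24 windows in 21 genes. Of these windows 23 were tested, with a median level of 2.53. A prefix, as in POU2AF3, does not show that each gene encodes such a factor. Of the 24, 13 were CpG-island-like and 13 lay in a last or single coding exon. The highest was ZIC5, a cerebellar and neural crest regulator, at 4.42 ± 0.81 in control and 4.40 ± 0.73 with dTAGV-1 (SD, n = 8), and replicate 12 was the lowest library in both groups. HOX genes held 3 windows, in HOXB4, HOXC8 and HOXC10, and the highest was HOXB4 at 2.93 ± 0.24 in control and 2.89 ± 0.21 with dTAGV-1. No window in these lists had an unadjusted p under 0.05, and the clustered protocadherins held none.

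Giant genes of the cytoskeleton and cell adhesion held 31 windows in 12 genes. Of these, 27 were tested, with a median level of 1.59, and 1 had an unadjusted p under 0.05, the SYNE1 window above. The spectrin-repeat gene DST held 6, with control means from 0.69 to 4.51, so windows in 1 gene differed by several log2 units. Outside that list, LAMA2, which encodes a laminin chain, held 6 tested windows with control means from 0.49 to 3.35 and log2 fold changes from -0.37 to 0.67. The smallest adjusted p among them was 1 by edgeR with Benjamini-Hochberg adjustment.

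The remaining lists were small. Collagens held 9 windows in 7 genes with a median level of 1.34, and the highest, COL19A1, had means of 2.27 in both groups. Chromatin regulators held 5 windows, in ARID1B, CHD3, KMT2A, KMT2C and SETD2, with a median level of 1.17. Cytosolic ribosomal protein genes held 2, in RPL37A and RPL3L. DYNC1I1, a dynein gene with coding exons known as enhancers of the neighbouring DLX genes, held 2, and the higher, over coding exon 14 of 16, read 2.98 ± 0.56 in control and 3.04 ± 0.35 with dTAGV-1 (SD, n = 8). None of these had an unadjusted p under 0.05. Over all tested windows 1.55% were lower and 1.3% higher at that p, so lists this small cannot show a difference from that background.

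Some genes had a called window at their start, and their coding exons could be read in the same libraries. The 216 called windows within 500 bp of a start, 214 of them lower, belonged to 277 genes, and 10 of those genes held 1 tested coding-exon window each, none overlapping the start window. Of the 10 coding-exon fold changes, 3 were negative, the median was 0.11, the range ran from -0.26 in SYT3 to 0.46 in ADCK1, and 0 were called. At the start windows, which were chosen by their call, the log2 fold changes lay between -0.97 in SIPA1L3 and -0.60 in ST3GAL2. Control means of the coding-exon windows were at most 1.14 log2 CPM, except in RNF113A, SIPA1L3 and ST3GAL2. The interval of the coding-exon fold change reached down to -1.02 in SYT3 and -0.87 in FCSK. Their start windows had -0.71 and -0.72, so a fall of that size was not excluded there. In the other genes the interval lay above the start's fold change, and smaller falls were not excluded.

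SIPA1L3, a Rap GTPase-activating protein gene, had the lowest fold change at its start: the control mean of 4.90 log2 CPM stood against 3.92 with dTAGV-1, a log2 fold change of -0.97 (adjusted p = 7.41e-05 by edgeR with Benjamini-Hochberg adjustment). Its coding-exon window, 22179 bp from the nearest start, had 2.07 ± 0.22 in control and 2.14 ± 0.60 with dTAGV-1 (SD, n = 8). In RNF113A, a splicing factor gene with a coding window only 1013 bp from a start, the start window went from 4.94 to 4.33, a log2 fold change of -0.63, while the coding window had 2.88 ± 0.19 and 2.92 ± 0.35. ST3GAL2, a sialyltransferase gene, had 3.00 ± 0.28 and 3.09 ± 0.23 in its coding window and a log2 fold change of -0.60 at its start. For ADCK1, a mitochondrial kinase gene, the coding window had a log2 fold change of 0.46 ± 0.36 (SE) and the window at the gene's start -0.85. The difference between a start and its coding exon was not tested.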

How the data were processed

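The deposited count table gives raw whole-number counts for 16 libraries in windows of 401 bp, per the file headers, and all its columns matched a sample. A −log10 q by the authors, from 2 upwards, stands beside each window, and the deposited summit list of replicates 1 to 8 has a −log10 score. Cutadapt 1.8.1, Bowtie2 2.4.4, SAMtools 1.9 and hg38 are named, with no role, per the submitters' processing notes. The peak caller, the read filter, the offset for Tn5 and whether cut sites or fragments were counted are not given in the sources used here. The labels describe 32 libraries, and replicates 1 to 8 entered no comparison.

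Coding-exon windows, their gene lists and their motifs were chosen with earlier results of these data known. Centres were placed with GENCODE release 44. Counts of all windows were fitted in edgeR 4.0.16 (R 4.3.3) with filterByExpr, TMM scaling and the quasi-likelihood test, with no covariate, and p-values were adjusted over all 185040 tested windows by Benjamini-Hochberg. Log2 CPM used a prior count of 2. Intervals of fold changes used the t distribution with 14 degrees of freedom and the standard error implied by the test. Windows were named by rule: the 5 smallest p-values on each side among coding-exon windows at or above their median level, the 8 with the highest control mean, those with the ZNF143 core, the highest of each gene list and the genes with the most windows. Of the windows so chosen, those of 1 gene are not reported here. CTCF windows, SCNN1D and RYR2 were added after values were seen, and the CTCF sequences with them. Motifs were searched within 100 bp of the centre (pysam 0.24.0). Copies were found with minimap2 2.31-r1302. The edgeR fit was tested on simulated counts with known changes. Replicates were compared in 56 pairs within groups, and their chi-square divided by its degrees of freedom was 1.65 to 5.15, so no pair matched within sampling noise. Alternatives were other scaling factors, no filter, DESeq2 1.42.0, a block by replicate number, left-out libraries, other distances from starts and canonical transcripts only.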

Additional observations from a re-analysis of the deposited data

Results flagged for a closer look

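In each group of 8 libraries, the values reported per library for the 37 chosen windows and for the coding-exon windows together were searched for a library that stood apart, by the gap to its nearest neighbour as a share of the range. Of 84 groups, 16 were picked out, and chance picks out about 1 in 20. Control replicate 12 accounted for 10 and dTAGV-1 replicate 12 for 4. These are the shallowest libraries, and the part of depth and of their flatter signal in these values was not tested.

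Over the coding-exon windows together, control replicate 12 had a mean of 3.13 log2 CPM in their top decile, where the other control libraries had 3.73 to 3.99, and 0.782% of its counts fell in coding-exon windows, where the others had 0.640% to 0.680%. In single windows it was the lowest control library for PAPSS1 (3.93 log2 CPM, others from 4.60), PRDM9 (4.35 and 4.57 in its 2 windows, others from 5.27 and 5.50), FSTL4 (-0.016, others from 2.02), DYNC1I1 (1.69, others from 2.85), APBB1IP (1.31, others from 2.23), ORAI3 (4.53, others from 4.91) and C17orf50 (3.47, others from 4.22). All of these are coding-exon windows of above-median level.

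With dTAGV-1, replicate 12 was the lowest library for COL19A1 (1.58 log2 CPM, others from 2.14), ZIC5 (2.77, others from 4.20) and ACE (2.99, others from 3.48), and the highest for PDLIM7 (2.59, others up to 1.77). Replicate 9 was the lowest for ADAMTSL4 at 3.43, where the others had 3.57 to 3.68. Replicate 10 was the highest for RASIP1 at 5.50, where the others had 5.18 to 5.32.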

How the results depend on the processing

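Of 94 alternative values for the main results, which include the calls over all windows, 82 were counted as keeping their direction and size. The tolerance was wide. Values of 1476 and 2382 coding-exon windows, against 1859 by the rule, were counted as kept. So were 321 calls over all windows, against 397, and a median log2 fold change of 0.008, against 0.023. No coding-exon window was called in any fit, including both other scalings, no filter, DESeq2, the replicate block, other distances from starts, canonical transcripts and each left-out library, and their smallest adjusted p ranged from 0.0875 to 0.890 (edgeR or DESeq2, Benjamini-Hochberg). Calls over all windows moved more: 753 with a replicate block, 781 without the libraries numbered 11 and 12, and 321 to 632 with 1 library left out, the highest without control replicate 12. Nothing in the labels ties same-numbered libraries together, and for that reason the main fit did not take the numbers as pairs. Their deviations all correlated positively, at 0.0276 to 0.336, with 5 of 8 over 0.1 and 4 of 8 best with their own number. A link by number was thus not excluded, and the main fit ignores any such link. The smallest adjusted p of 0.0875 came from the replicate block, in LRRC75A (edgeR, Benjamini-Hochberg). The median control level of 1.37 log2 CPM became 1.56 with a prior count of 5, 1.19 with no filter, 1.585 at 500 bp from starts and 1.23 at 2000 bp. The share with the ZNF143 core, 0.269%, became 0.108% within 50 bp and 0.9145% with a looser core. The share with a summit, 68.4%, became 71.5% when summits within 100 bp counted, 48.0% with the upper scores only and 64.6% at 500 bp from starts.

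Of 814 alternative fold changes of the 37 chosen windows, 53 in 15 windows changed sign, all from a log2 fold change of at most 0.106 in size except TCF12, and none was called. Without the libraries numbered 11 and 12 the values were -0.022 in PAPSS1, 0.006 and 0.021 in PRDM9, 0.011 in DYNC1I1, 0.063 in TCF12, 0.052 in ORAI3, 0.018 in HOXB4 and 0.007 in ACE. With 1 library left out they ran from -0.045 to 0.096 in PAPSS1, -0.137 to 0.073 and -0.120 to 0.082 in PRDM9, -0.113 to 0.003 in TMEM63B, -0.012 to 0.116 in COL19A1, -0.081 to 0.054 in DYNC1I1, -0.021 to 0.123 in CLCN1, -0.034 to 0.081 in ZNF703, -0.154 to 0.067 in ZIC5, -0.020 to 0.184 in RPL3L, -0.061 to 0.041 in ORAI3, -0.021 to 0.112 in C17orf50, -0.084 to 0.022 in HOXB4 and -0.067 to 0.027 in ACE. The cause was not tested. The median tested coding-exon window had 19.5 counts in a control library, and windows share counts where they overlap.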
